A study of Homo sapiens with 4 samples.

Results

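SR proteins and heterogeneous nuclear ribonucleoproteins (hnRNPs) are RNA-binding proteins that meet nascent transcripts in the nucleus. SR proteins carry a domain rich in arginine-serine dipeptides, bind exonic enhancers and help the spliceosome to recognise an exon, whereas many hnRNPs bind silencer elements in exons and introns and oppose that recognition. Both families are abundant in dividing cells, and many members control their own mRNA level by splicing in an exon that sends the transcript to nonsense-mediated decay. The genes described here were taken by name, as every protein-coding gene of the expression table whose symbol starts with SRSF or HNRNP, with pseudogenes left out. The rule used no measured value and gave 33 of the 28729 genes in the table, 11 SRSF and 22 HNRNP.

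The measurement was RNA sequencing of TU-177, an established line of laryngeal squamous cell carcinoma (LSCC). Cells were transduced with lentivirus that carried either a negative control shRNA (NC) or an shRNA against SKA3 (SKA3-KD), a subunit of the complex that holds kinetochores to spindle microtubules. All 4 libraries, 2 NC and 2 SKA3-KD, came from cells that survived puromycin, and the labels give neither the number of shRNA sequences nor the time of harvest. They do not say whether replicates 1 and 2 were separate cultures, so the p-values measure only the spread between these libraries, which may be technical.

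Levels are given as FPKM, that is fragments per kilobase, already divided by library size, so that levels can be compared between genes. A difference is the log2 fold change of FPKM + 1, SKA3-KD minus NC, with a standard error (SE) from limma. The fit took in the 12645 genes whose mean FPKM was 1 or more, and a gene was called lower or higher at a Benjamini-Hochberg adjusted p under 0.05 over all genes tested. With 2 libraries against 2, an exact permutation test of a single gene cannot go below p = 0.33. The divisor for library size, as read off the smallest FPKM steps, lay between 9015056 and 11966130 reads. SKA3 itself stood at 9.40 and 9.64 FPKM in NC and at 3.77 and 4.12 FPKM in SKA3-KD, and fell by 1.09 on the log2 scale (SE 0.075, limma, Benjamini-Hochberg adjusted p = 0.0081).

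The line carried part of the squamous programme. Of 11 squamous epithelial markers in the table, 6 reached 1 FPKM in some library, led by SFN, DSP and PERP, while KRT5, KRT14, KRT6A, TP63 and CDH1 stayed under 1 FPKM in every library. The summed squamous markers ranged from 343 to 350 FPKM in NC and from 264 to 287 FPKM in SKA3-KD. Of the 6 squamous markers tested, 2 were called lower and 0 higher, beside 6.11% and 6.16% of all genes tested. SFN, DSP, S100A2 and EPCAM had no call, so the lower sum does not describe every marker. Both endothelial markers and the leukocyte markers PTPRC, CD14 and CD68 stayed under 1 FPKM, and PTPRC was at 0 in 3 of the 4 libraries. The 5 fibroblast markers summed to 12.5 and 13.3 FPKM in NC and to 5.67 and 5.43 FPKM in SKA3-KD, nearly all of it from DCN and COL1A1, with COL1A2 at or near 0. Only 2 fibroblast markers were tested, of which 1 was called lower. The part of these marker differences in the results below was not tested.

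The SR and hnRNP genes were among the better expressed genes of the line and, as families, overlapped between NC and SKA3-KD. Of the 33 genes, 31 passed the filter on low values. SRSF12 was listed at 0 in all libraries, and the readthrough gene HNRNPUL2-BSCL2, which joins 2 neighbouring genes in one transcript, had 0 reads in both NC libraries and 2 reads in each SKA3-KD library. The median rank of the tested members by mean FPKM was 717 of 12645 genes. The summed SRSF level was 554 and 524 FPKM in NC and 530 and 535 FPKM in SKA3-KD, with both SKA3-KD libraries between the NC libraries. The summed HNRNP level was 2176 and 2049 FPKM in NC and 2086 and 2036 FPKM in SKA3-KD, again with overlap.

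**Figure D1:**
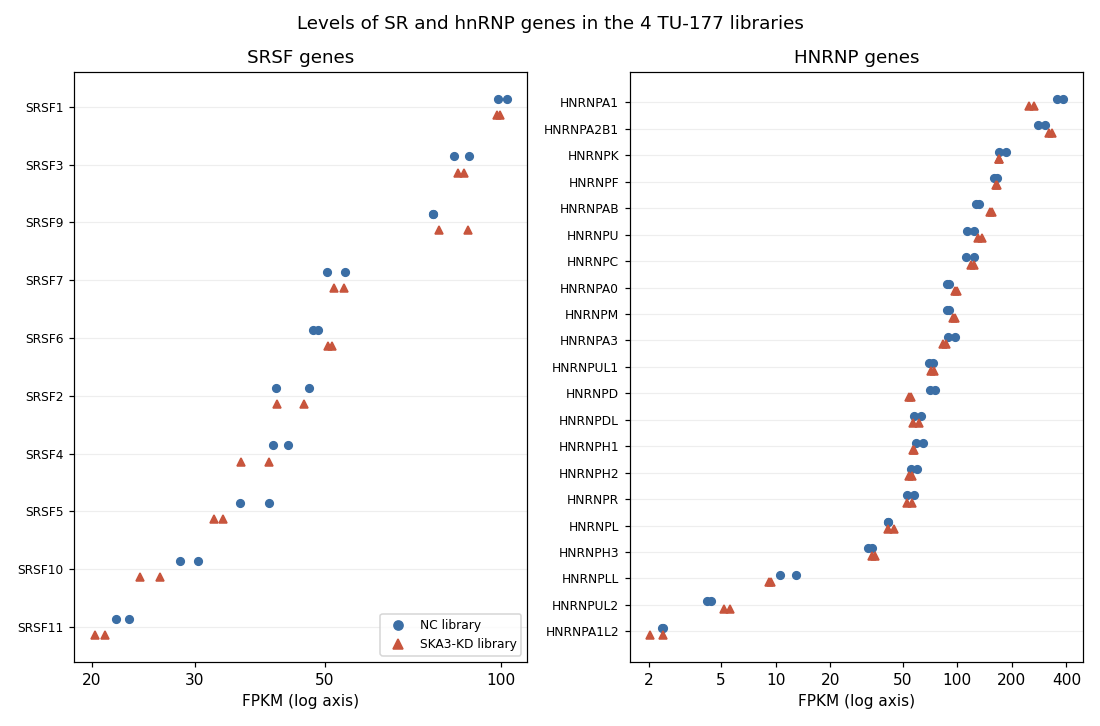
FPKM of the 10 SRSF and 21 HNRNP genes tested, on a log axis, with 1 circle per NC library and 1 triangle per SKA3-KD library. SRSF genes spanned mean levels from 21.6 to 99.8 FPKM and HNRNP genes from 2.30 to 313 FPKM, and the 2 groups separated most widely at HNRNPA1 and HNRNPD among the abundant genes.

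Only single members passed the test. HNRNPA1 and HNRNPD were called lower and HNRNPAB was called higher, which is 2 and 1 of 31 members, against 6.11% of all genes tested called lower and 6.16% called higher. No SRSF gene passed. The median difference was -0.0094 over the members, -0.015 over the SRSF genes and 0.018 over the HNRNP genes, beside 0.010 over all genes tested. The family medians changed sign with single libraries: without NC 1 they were 0.024 (SRSF) and 0.038 (HNRNP), and without NC 2 they were -0.073 and -0.018. At an unadjusted p under 0.05, limma gave 5 lower and 4 higher members, against 15.1% and 16.2% of all genes. Both SKA3-KD libraries lay below both NC libraries at 10 members and above both at 9, against 29.2% and 32.3% of all genes tested, and the groups overlapped at 12 members. Each of these shares was near the background. Limma voom on the reads recovered from the FPKM values called 5 members lower and 2 higher, where 12.2% and 13.6% of all genes were called lower and higher.

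**Figure D2:**
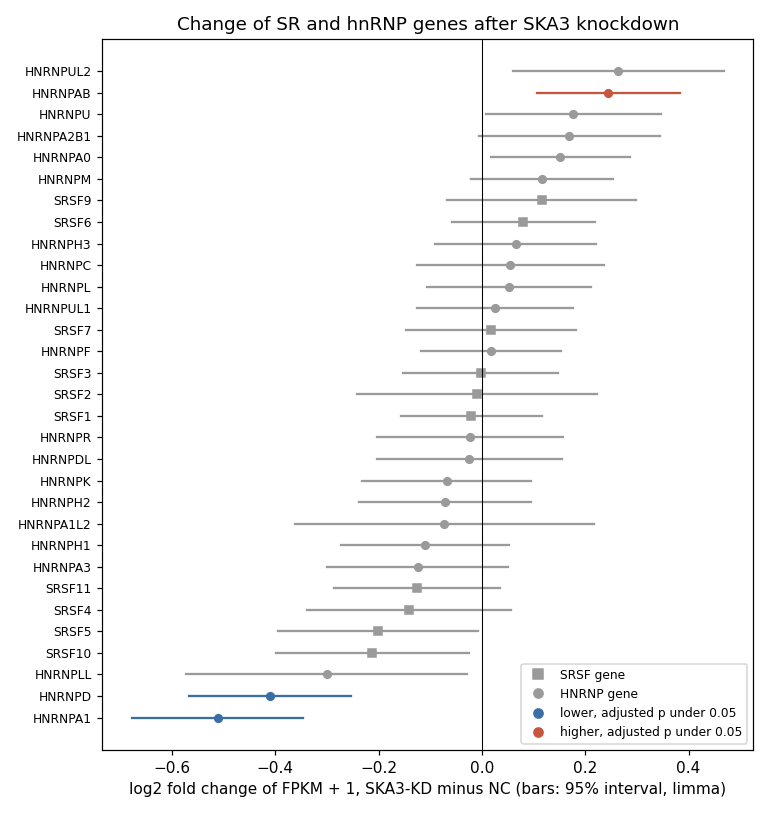
Log2 fold change of FPKM + 1, SKA3-KD minus NC, for the 31 members tested, with the 95% interval from limma. The points run from -0.51 at HNRNPA1 to 0.26 at HNRNPUL2, and the 3 coloured genes (HNRNPA1, HNRNPD and HNRNPAB) are those past the threshold.

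The A/B type hnRNPs, most of which pair tandem RNA recognition motifs with a glycine-rich tail, held all 3 called members. Of 8 A/B type genes tested, 2 were lower and 1 higher, beside 6.11% and 6.16% of all genes tested. HNRNPA1 (ENSG00000135486, chr12:54280193-54287088, plus strand) encodes the hnRNP best known for binding exonic and intronic silencers and for shuttling between nucleus and cytoplasm. It had 381 and 355 FPKM in NC and 266 and 250 FPKM in SKA3-KD, from 23210, 16311, 13797 and 14996 reads. Both SKA3-KD libraries lay well below both NC libraries. HNRNPA1 fell by 0.51 on the log2 scale (SE 0.065, limma, Benjamini-Hochberg adjusted p = 0.017), and its mean level fell by 29.9%, from 368 ± 18.1 to 258 ± 11.7 FPKM (SD, n = 2). Each library pooled many cells, so that less mRNA per cell and fewer cells with the mRNA cannot be told apart.

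HNRNPA2B1, an abundant close relative of HNRNPA1 that binds mRNA transport elements, lay the other way. Its level was 306 and 277 FPKM in NC and 334 and 322 FPKM in SKA3-KD, so that both SKA3-KD libraries stood above both NC libraries. Its difference was 0.17 (95% interval -0.0054 to 0.34), which did not pass the test (limma, Benjamini-Hochberg adjusted p = 0.17), and it was 0.098 without NC 2. The ratio of HNRNPA1 to HNRNPA2B1 was 1.24 and 1.28 in NC and 0.796 and 0.776 in SKA3-KD. On the FPKM scale HNRNPA1 was thus the more abundant of the pair in NC and the less abundant in SKA3-KD. This order depends on the gene lengths used for FPKM. It also leaves out the HNRNPA1 pseudogene rows, which summed to 155 and 145 FPKM in NC and to 151 and 157 FPKM in SKA3-KD. The HNRNPA1 share of the summed HNRNP level was 17.5% and 17.3% in NC and 12.8% and 12.3% in SKA3-KD. Without HNRNPA1 the summed HNRNP level was 1795 and 1693 FPKM in NC and 1820 and 1786 FPKM in SKA3-KD, with overlap.

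HNRNPA1 has many processed pseudogenes, whose near-identical sequence can take or give reads. The table held 25 such rows, of which 4 averaged 1 FPKM or more. HNRNPA1P33, an entry of 561 bases on chromosome 10, stood at 119 and 121 FPKM in NC and at 126 and 134 FPKM in SKA3-KD, with no call (difference 0.11, limma, Benjamini-Hochberg adjusted p = 0.26). Short as it is, this row held 802, 613, 719 and 889 reads. All HNRNPA1 pseudogene rows together took 0.0110% and 0.00948% of the library size in NC and 0.00996% and 0.0102% in SKA3-KD, a small share beside the parent gene, and the groups overlapped. For each 100 reads on HNRNPA1 the pseudogenes had 5.66 and 5.24 reads in NC and 7.35 and 8.01 reads in SKA3-KD. Parent and pseudogenes together took 0.205% and 0.190% of the library size in NC and 0.146% and 0.137% in SKA3-KD. With the pseudogene FPKM added to the parent before the fit, the difference of HNRNPA1 was -0.33 and still past the threshold. That sum gives a short row such as HNRNPA1P33 more weight than its number of reads. As a share of the library size, parent and pseudogenes together fell by 28.5% and HNRNPA1 alone by 29.9%. HNRNPA1P48, which the annotation types as protein coding under a pseudogene name, was left out of the members; it stood at 20.1 and 10.2 FPKM in NC and at 12.6 and 11.3 FPKM in SKA3-KD.

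**Figure D3:**
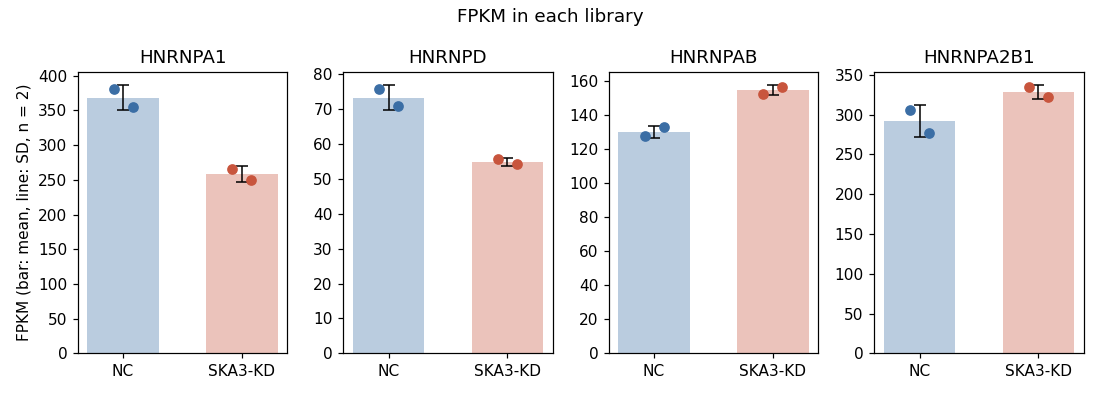
FPKM in each library (points), group mean (bar) and SD (line, n = 2) for HNRNPA1, HNRNPD, HNRNPAB and HNRNPA2B1, each on its own axis from 0. SKA3-KD points lie below the NC points for HNRNPA1 and HNRNPD and above them for HNRNPAB and HNRNPA2B1.

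HNRNPD, HNRNPAB and HNRNPDL form a close-knit branch of this group. HNRNPD (ENSG00000138668, chr4:82352498-82374503, minus strand) encodes AUF1, which binds AU-rich elements of unstable mRNAs, and HNRNPAB (ENSG00000197451, chr5:178204507-178211163, plus strand) encodes a relative with roles in transcription and mRNA transport. Because these genes were called in opposite directions, their promoter stretches are shown side by side, from RefSeq (GRCh38.p14), 5′ to 3′ on the gene's strand. HNRNPD is at chr4:82373992-82374118, from base -127 to base -1 of the RefSeq start, and HNRNPAB is at chr5:178204283-178204506, from base -250 to base -27, both cut so that they hold no annotated exon of the gene. The HNRNPD stretch lies inside the gene span given above, which on the minus strand begins at base 82374503. The RefSeq start used here is thus not the outermost annotated start of HNRNPD. Capitals mark matches on either strand to the CCAAT box, to the E-box word CACGTG, to the TATA box word TATAAA and to the GC box word GGGCGG, none of which overlap here.
HNRNPD: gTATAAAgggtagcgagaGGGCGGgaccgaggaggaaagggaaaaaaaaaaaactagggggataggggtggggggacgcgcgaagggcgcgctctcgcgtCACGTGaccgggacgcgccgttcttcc
HNRNPAB: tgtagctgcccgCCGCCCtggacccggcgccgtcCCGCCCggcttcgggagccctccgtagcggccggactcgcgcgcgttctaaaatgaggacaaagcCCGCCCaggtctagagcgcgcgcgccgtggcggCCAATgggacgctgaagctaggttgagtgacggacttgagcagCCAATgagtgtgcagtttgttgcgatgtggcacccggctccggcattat

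TATAAA was found in the 250 bases before the RefSeq start of both genes, but at HNRNPAB it reaches past the end of the stretch shown. Within the stretches, HNRNPD had TATAAA from base -126, GGGCGG from base -109 and CACGTG, which Myc family proteins among others bind, from base -27. HNRNPAB had GGGCGG in reverse from bases -238, -216 and -151 and CCAAT, the element bound by NF-Y, from bases -118 and -75. Over the 250 bases before the start, CACGTG occurred at 6 of 20 HNRNP and 0 of 9 SRSF genes with a RefSeq promoter here, beside 6.49% of 27305 promoters. CCAAT occurred at 13 of 20 HNRNP and 1 of 9 SRSF genes (33.0% of all), GGGCGG at 16 and 3 (42.3%) and TATAAA at 3 and 2 (11.1%). The genes with CACGTG were HNRNPA3, HNRNPD, HNRNPDL, HNRNPH2, HNRNPH3 and HNRNPM, of which HNRNPD alone was called. These matches describe letters in a window.

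HNRNPD had 75.8 and 70.8 FPKM in NC and 55.7 and 54.1 FPKM in SKA3-KD. The groups did not overlap, and the difference was -0.41 (SE 0.061, limma, Benjamini-Hochberg adjusted p = 0.023), a mean that fell by 25.1%. HNRNPAB had 128 and 133 FPKM in NC and 152 and 156 FPKM in SKA3-KD. Here both SKA3-KD libraries were higher, with a difference of 0.24 (SE 0.054, limma, Benjamini-Hochberg adjusted p = 0.049) that lay just inside the threshold. HNRNPDL, next to HNRNPD on chromosome 4, had 62.7 and 57.9 FPKM in NC and 61.4 and 57.3 FPKM in SKA3-KD, with overlap and a 95% interval of the difference from -0.20 to 0.16. The ratio of HNRNPD to HNRNPAB was 0.594 and 0.534 in NC and 0.366 and 0.346 in SKA3-KD, and that of HNRNPD to HNRNPDL was 1.21 and 1.22 in NC and 0.908 and 0.945 in SKA3-KD. On the FPKM scale HNRNPD thus passed from above HNRNPDL to below it, an order that depends on the gene lengths used.

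The other A/B type members had no call. HNRNPA0, a target of the stress kinase MK2, had 88.2 and 89.7 FPKM in NC and 97.7 and 100.2 FPKM in SKA3-KD, without overlap and with a difference of 0.15 (95% interval 0.018 to 0.29; limma, Benjamini-Hochberg adjusted p = 0.13). HNRNPA3 had 97.4 and 88.9 FPKM in NC and 87.3 and 83.4 FPKM in SKA3-KD, with a difference of -0.12 (95% interval -0.30 to 0.051). HNRNPA1L2, a retrocopy of HNRNPA1 with 49 to 67 reads a library, stood between 2.04 and 2.40 FPKM in all libraries, and its share of reads with the parent gene is uncertain.

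HNRNPU, HNRNPUL1 and HNRNPUL2 are large proteins with a SAP domain that bind both chromatin and RNA. In the limma fit of FPKM they had no negative difference and no call, where 6520 of the 12645 genes tested had a positive difference. HNRNPU, also known as scaffold attachment factor A, had 123 and 114 FPKM in NC and 137 and 130 FPKM in SKA3-KD. Both SKA3-KD libraries stood above both NC libraries, with a difference of 0.18 (95% interval 0.0075 to 0.35; limma, Benjamini-Hochberg adjusted p = 0.15), and voom on the recovered reads called it higher (Benjamini-Hochberg adjusted p = 0.044, with 0.044 to 0.28 over all alternatives with 4 libraries). HNRNPUL2 had 4.41 and 4.19 FPKM in NC and 5.57 and 5.16 FPKM in SKA3-KD, the largest positive difference of all members at 0.26 (SE 0.080) and the nearest outside the threshold (limma, Benjamini-Hochberg adjusted p = 0.097). It rests on 200 to 322 reads a library and overlaps the readthrough gene HNRNPUL2-BSCL2. HNRNPUL1 overlapped between the groups, with a difference of 0.025 (95% interval -0.13 to 0.18). Its sign changed with the setting, to -0.018 with GC and length correction and to -0.013 without NC 1.

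The F/H type proteins, which bind G-rich tracts through quasi-RNA recognition motifs, had no call. HNRNPF, the most abundant of them, had 166 and 160 FPKM in NC and 167 and 164 FPKM in SKA3-KD, and its 95% interval ran from -0.12 to 0.15. HNRNPH1, HNRNPH2 and HNRNPH3 had differences of -0.11, -0.071 and 0.065. Their intervals all include 0, and the widest half-interval of the 4 genes was 0.166.

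Among the remaining hnRNPs, HNRNPK, a poly-C binding KH domain protein and the third most abundant member, had 187 and 171 FPKM in NC and 170.2 and 170.3 FPKM in SKA3-KD. The difference was -0.068 (95% interval -0.23 to 0.096). HNRNPC, which binds uridine tracts and covers cryptic splice sites, had 123 and 111 FPKM in NC and 124 and 119 FPKM in SKA3-KD, with overlap. HNRNPL, a binder of CA repeats, and HNRNPR had differences of 0.052 and -0.023, also with overlap, and HNRNPM, a regulator of splicing in epithelial-mesenchymal transition, had 0.12 (95% interval -0.020 to 0.25).

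HNRNPLL, the relative of HNRNPL known for exon skipping of CD45 in lymphocytes, had 13.0 and 10.6 FPKM in NC and 9.46 and 9.22 FPKM in SKA3-KD. The groups did not overlap, but the NC libraries were far apart. Its difference of -0.30 (95% interval -0.57 to -0.029) was the third lowest of all members and did not pass (limma, Benjamini-Hochberg adjusted p = 0.13). It was -0.16 without NC 1 and -0.44 without NC 2. Voom on 565 to 921 reads a library called it lower, with a difference of -0.34 (Benjamini-Hochberg adjusted p = 0.013, with 0.013 to 0.28 over the alternatives). PTPRC, the gene of CD45, was at or near 0 in these cells.

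The SR proteins gave 10 genes with a value and no call in the limma fit of FPKM. Their 95% intervals measure only the spread between these libraries, which may be technical. Such intervals cannot bound a change between separate cultures. SRSF1, the prototype SR protein and a known oncoprotein, had 102 and 98.7 FPKM in NC and 98.5 and 99.7 FPKM in SKA3-KD. SRSF3, the smallest SR protein and an adaptor of mRNA export, had 88.3 and 83.1 FPKM in NC and 86.5 and 84.6 FPKM in SKA3-KD. Both genes overlapped between the groups, with differences of -0.020 (95% interval -0.16 to 0.12) and -0.0020 (95% interval -0.15 to 0.15). SRSF9 had 76.6 and 76.4 FPKM in NC and 78.5 and 87.7 FPKM in SKA3-KD, and its difference of 0.12 came mostly from SKA3-KD 2. SRSF7, which also serves in mRNA export, had 54.2 and 50.4 FPKM in NC and 54.0 and 51.9 FPKM in SKA3-KD. SRSF2, which can act in transcription elongation as well as splicing, had 46.9 and 41.3 FPKM in NC and 46.0 and 41.5 FPKM in SKA3-KD, with the widest interval of the family (-0.24 to 0.22).

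The lowest differences of the SRSF genes were at SRSF10 and SRSF5. SRSF10, which represses splicing when dephosphorylated in heat shock and mitosis, had 30.4 and 28.3 FPKM in NC and 24.2 and 26.2 FPKM in SKA3-KD. The groups were apart, with a difference of -0.21 (95% interval -0.40 to -0.025; limma, Benjamini-Hochberg adjusted p = 0.13). SRSF5 had 40.2 and 35.8 FPKM in NC and 33.5 and 32.4 FPKM in SKA3-KD, also apart, with a difference of -0.20 (95% interval -0.39 to -0.0071; limma, Benjamini-Hochberg adjusted p = 0.15). Limma voom on the recovered reads called SRSF10 lower at a Benjamini-Hochberg adjusted p = 0.027, with 0.027 to 0.22 over the alternatives. It also called SRSF5 lower, at a Benjamini-Hochberg adjusted p = 0.044, with 0.044 to 0.27 over the alternatives, and the limma difference of SRSF5 was -0.12 without NC 1. SRSF4 (-0.14), SRSF11 (-0.13) and SRSF6 (0.080) completed the family, all with intervals that include 0.

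The annotation gives one feature that the name rule did not use. In GENCODE 29, 11 of 11 SRSF genes and 14 of 22 HNRNP genes have a transcript typed as nonsense-mediated decay, beside 44.0% of the protein-coding genes tested. A transcript with a retained intron is annotated for 9 of 11 SRSF and 14 of 22 HNRNP genes, beside 59.0%. HNRNPU has 9 decay transcripts and SRSF7 has 6, HNRNPD has 2, HNRNPA1 has 1 and HNRNPAB has none. The table gives 1 value per gene, so that productive and decay transcripts of a gene are summed in every FPKM above.

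Other parts of the splicing apparatus were listed for comparison, 135 genes of which 129 were tested. They gave 3 lower and 6 higher genes, with a median difference of -0.0010. Among all genes tested, 6.11% were lower and 6.16% higher. No gene of the U1 and Sm core (10 tested), of the U2 and branch site factors (17) or of the tri-snRNP and Prp19 complex (22) passed. The regulators of SR proteins had the lowest median of the lists, -0.14 over 15 genes, with 1 called in each direction.

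CLK1, a kinase that phosphorylates SR proteins and releases them from nuclear speckles, had 6.77 and 6.69 FPKM in NC and 4.20 and 3.92 FPKM in SKA3-KD. It was the lowest of all the listed splicing genes and fell by 0.61 on the log2 scale (limma, Benjamini-Hochberg adjusted p = 0.016). TNPO3, the import receptor that carries SR proteins into the nucleus, had 29.6 and 27.7 FPKM in NC and 35.7 and 37.8 FPKM in SKA3-KD, and rose by 0.35 (limma, Benjamini-Hochberg adjusted p = 0.037). ARGLU1, the one called SR-related protein and an arginine- and glutamate-rich splicing coactivator, had 48.2 and 47.0 FPKM in NC and 35.1 and 36.2 FPKM in SKA3-KD. It fell by 0.41 (limma, Benjamini-Hochberg adjusted p = 0.020).

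Among hnRNP-like proteins whose symbols do not start with HNRNP, 3 of 20 tested were called, all higher. RALY, a relative of HNRNPC, had 72.5 and 72.3 FPKM in NC and 95.4 and 104.7 FPKM in SKA3-KD (difference 0.46, limma, Benjamini-Hochberg adjusted p = 0.022). TARDBP, the gene of TDP-43, had 44.5 and 40.2 FPKM in NC and 60.4 and 60.3 FPKM in SKA3-KD (difference 0.50, limma, Benjamini-Hochberg adjusted p = 0.020). KHSRP, which like HNRNPD binds AU-rich elements, had 96.1 and 104 FPKM in NC and 125 and 131 FPKM in SKA3-KD (difference 0.36, limma, Benjamini-Hochberg adjusted p = 0.035). At each of these genes the groups did not overlap. MAGOH (0.37) of the exon junction complex, SMG9 (0.48) of the decay pathway and RBM38 (-0.41), an RNA-binding regulator of splicing and mRNA stability, were the other calls.

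**Figure D4:**
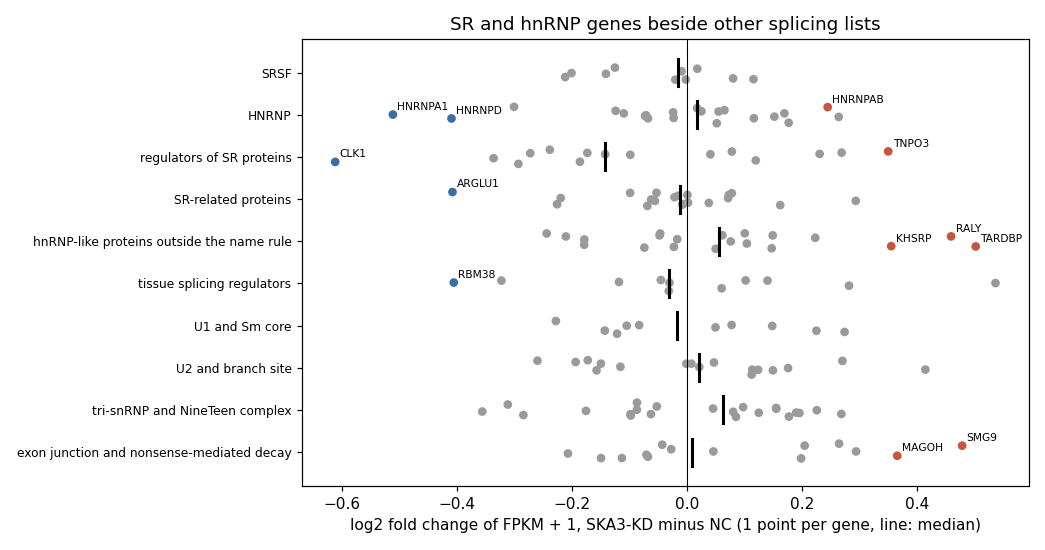
Log2 fold change of FPKM + 1, SKA3-KD minus NC, with 1 point per gene tested for the SRSF genes, the HNRNP genes and 8 other lists of splicing genes, and a black line at each median. Coloured and named points are past the threshold, 2 lower and 1 higher among HNRNP genes and none among SRSF genes, and most points lie between -0.3 and 0.3.

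The calls of HNRNPA1, HNRNPD and HNRNPAB rested on all 4 libraries. Leaving out any one library left no member past the threshold, and the numbers of all genes called were then 0 lower and 0 higher without NC 1 or without NC 2, 53 and 13 without SKA3-KD 1, and 135 and 46 without SKA3-KD 2. The differences themselves ranged from -0.56 to -0.46 for HNRNPA1, from -0.46 to -0.36 for HNRNPD and from 0.22 to 0.27 for HNRNPAB over these fits. With all 4 libraries and 11 other settings, HNRNPA1 passed in 10, HNRNPD in 9 and HNRNPAB in 7, each in its own direction throughout. The setting with pseudogene FPKM added left the differences of HNRNPD (-0.41) and HNRNPAB (0.24) unchanged, so it is no separate check for them. Over these settings the limma Benjamini-Hochberg adjusted p reached 0.079 for HNRNPA1, 0.067 for HNRNPD and 0.12 for HNRNPAB.

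**Figure D5:**
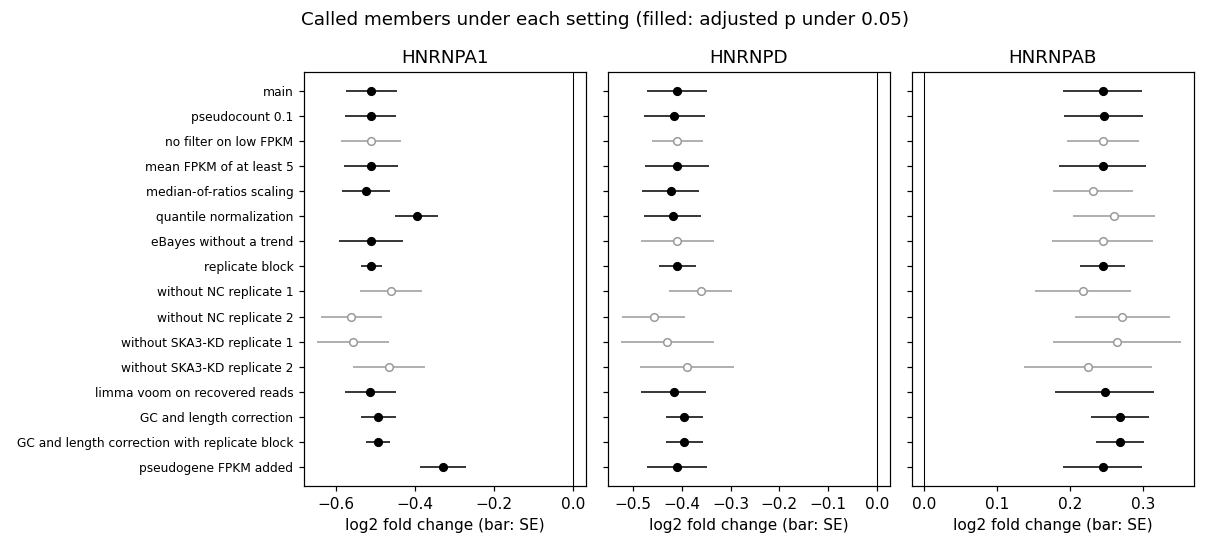
Log2 fold change of the 3 called members under each setting, with its SE, filled where the adjusted p was under 0.05. HNRNPA1 and HNRNPD stay below 0 and HNRNPAB above 0 at every setting, and the open circles include each fit that leaves out a library.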

How the data were processed

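The authors deposited FPKM values per gene for 4 libraries, made from total RNA extracted with Trizol. The submitters' processing notes name HISAT2, Bowtie2 2.2.8, StringTie 1.3.1, Cuffdiff 2.1.1 and hg19, without their roles. FPKM are already divided by gene length and library size. Symbols, positions and exon lengths were looked up in GENCODE 29 (GRCh38), where 27199 of the identifiers were found, so lengths may differ from the hg19 annotation used. Of 38 annotated SRSF and HNRNP protein-coding genes, HNRNPCL1 to HNRNPCL4 and SRSF8 are not analysed here. All value columns belong to the 4 libraries, which were grouped by their labels.

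SKA3-KD was compared with NC by limma 3.58.1 (R 4.3.3; lmFit, eBayes with trend) on log2(FPKM + 1), a scale that understates changes of low genes, with Benjamini-Hochberg adjustment over the 12645 genes that averaged 1 FPKM or more. Low FPKM values are whole multiples of 1 read; whole reads (within 0.01 of a whole number) were recovered for 68.1% of genes above 0 from the exon length, and for 97.4% when proportions between libraries were added. For 14 members reads came from proportions and are known up to a common factor. The library-size divisor was thus 9015056 to 11966130 reads. The recovered reads summed over genes were higher in every library (9593444 to 12863978), the cause of which was not tested, so depth is known only approximately. Tested members other than HNRNPA1L2 and HNRNPUL2 had at least 565 reads a library. The variation between replicates was 3.94 (NC) and 3.89 (SKA3-KD) times the counting error (chi-square per degree of freedom), so the replicates of neither group agree within counting error. On simulated data (12007 genes, 195 changed 2-fold, with the same added spread for every gene) limma recovered 145 with 22 false calls, and voom recovered 171 with 8. Changes as small as those of the called members were not simulated. Every called member, the 4 most abundant of each family, the members next to the threshold and those listed at or near 0 were named, with at most 4 called genes from each other list, and other members were described after their values were seen. Members, lists and alternatives were chosen with earlier results of these data known. The pseudogene alternative was chosen after seeing the data. Promoters are RefSeq's, found for 29 of 31 tested members, not for HNRNPA1 and SRSF2. Python 3.11.15 with pandas 2.3.3, numpy 2.4.6 and matplotlib 3.10.9 made tables and figures. The result of 1 marker gene is not reported here.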

Additional observations from a re-analysis of the deposited data

How the results depend on the processing

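With 2 libraries a group, calls depended on the setting more than values did. The main counts were 2 lower and 1 higher members, and 3 lower and 6 higher genes in the other splicing lists. Among all 12645 genes tested, 772 were called lower and 779 higher, and these counts also moved with the setting. Without a filter on low FPKM, both counts were 0 and 0, beside 81 lower and 48 higher of the 26504 genes tested. With a mean FPKM of at least 5 the other lists gave 10 and 13, beside 887 and 993 of the 7303 genes tested. Median-of-ratios scaling and quantile normalization left 0 members higher, since HNRNPAB then had a limma Benjamini-Hochberg adjusted p of 0.058 and 0.051 (0.0095 to 0.12 over the alternatives). Among all genes, the scaling called 810 lower and 701 higher, and quantile normalization 745 and 723. EBayes without a trend gave 1 lower and 0 higher members, and 1 and 0 genes in the other lists. It called 381 lower and 312 higher among all genes. Limma voom on recovered reads gave 5 and 2 members, and 15 and 21 in the other lists. Voom called 1546 lower and 1719 higher among all genes. GC and length correction kept the members' counts. In the other lists it gave 11 and 14, beside 1208 and 1318 of the 12241 genes tested. The median GC content was 41.2% for members and 48.3% for all genes tested. Leaving out one library each gave 0 to 0 lower and 0 to 0 higher members, the same for the other lists, and an SRSF median from -0.073 to 0.024 (-0.073 without NC 2) and an HNRNP median from -0.018 (without NC 2) to 0.038 (without NC 1). SKA3 ranged from -1.14 to -1.04 in these fits and missed the threshold without NC 1 (-1.11) or NC 2 (-1.07). The median difference of all genes lay between -0.00065 and 0.021 under every setting with 4 libraries. For the causes of these moves, fewer samples or more genes tested are part of the settings, and the others were not tested.

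The labels link replicates of NC and SKA3-KD only by a number. Same-numbered deviations from the group means correlated at 0.0973 over genes. With 2 libraries a group this is a single value, and the crossed correlation is its negative by construction. It cannot show whether same-numbered libraries were handled together. With the replicate block, 2 members were lower and 2 higher (HNRNPU joined), the other lists gave 8 and 13, and all genes 965 and 1002. With the replicate block and GC and length correction together, 2 members were lower and 4 higher (HNRNPA0, HNRNPA2B1 and HNRNPU joined), and the other lists gave 14 and 14. More genes were called throughout the series in that fit, 1329 lower and 1427 higher of the 12241 tested.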
